A study of Mus musculus with 12 samples.

Results

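Brown adipose tissue of vehicle-treated mice lacking the estrogen-related receptors ERRα and ERRγ in adipocytes (ERRKO_PBS) was compared with that of vehicle-treated controls (WT_PBS), to ask which transcripts depend on the receptors when no adrenergic agonist is given. The 6 libraries were chosen by their labelled genotype and treatment, 3 in each group, out of 12 in the study. The other 6, from the same genotypes given the β3-adrenergic agonist CL316,243 at 1 mg/kg, entered the shared estimate of spread and a last comparison. All mice were males of strain C57BL/6J Bom, labelled as 12 weeks of age, fed chow and housed at 30 °C. All carried floxed ERRα and ERRγ alleles, so the groups differ by the Cre transgene as well as by the deletion. In ERRKO mice the adiponectin promoter drove Cre, which spares cells of the tissue that are not adipocytes and acts in other fat depots too. WT mice were littermates with floxed alleles and no Cre. PBS was injected into the peritoneum on each of 10 days at Zeitgeber time 4, with collection of tissue 24 h after the final injection. Total RNA was sequenced. Whether replicate libraries came from different animals is not labelled, so p-values here measure spread between samples, which may be technical.

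ERRα and ERRγ are orphan nuclear receptors that bind an extended half-site in DNA and recruit coactivators of the PGC-1 family. They are known for driving genes of the respiratory chain, the tricarboxylic acid (TCA) cycle and fatty acid oxidation in tissues of high energy demand. Brown adipocytes are packed with mitochondria and make heat through UCP1, which lets protons return across the inner membrane without making ATP. Noradrenaline switches this on through β-adrenergic receptors and cyclic AMP, and a warm environment keeps the drive low.

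Levels are given as RPKM (reads per kilobase of gene, relative to a read total not given in the sources used here). They are scaled across libraries by the median of ratios, and 3 values in a row are replicates 1, 2 and 3. Changes are differences of log2(scaled RPKM + 0.5), ERRKO_PBS minus WT_PBS, ± SE, with 3 libraries per group and p-values from limma with Benjamini-Hochberg adjustment over 12249 genes. A gene is said to rise or fall where this adjusted p was below 0.05. Reads recovered for listed genes numbered 8478310 to 9727167 per WT_PBS library and 12822176 to 13263567 per ERRKO_PBS library. By the ratio of recovered reads to RPKM, the totals behind the RPKM were 0.934 to 1.03 times that of WT_PBS replicate 1. Of these totals listed genes held 1.38 to 1.41 times the mean WT_PBS share in ERRKO_PBS, and 0.975 to 1.02 times in WT_PBS. The source of this difference was not tested. Without the median-of-ratios scaling the median gene was higher in ERRKO_PBS by 0.53 (log2), which the scaling set to 0.0055. Direction for groups of genes with small changes depends on this choice, and counts on the deposited scale are given where the balance turns. Libraries correlated at 0.967 to 0.984 within a group and at 0.914 to 0.939 between groups (Pearson's r over genes, which are not independent). The tissue label matched its markers in WT_PBS, where Ucp1, Cidea and Cox8b were high, while Elovl3, a brown fat elongase, lay between 0 and 0.156 in all 6 libraries. Skeletal muscle transcripts varied most between libraries. The sum of 18 muscle markers was 403, 41.3 and 68.9 in WT_PBS and 528, 163 and 3917 in ERRKO_PBS, so ERRKO_PBS replicate 3 stood highest.

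Esrra and the coregulators of its protein came first. Esrra, which encodes ERRα, was at 46.9, 41.6 and 42.3 in WT_PBS and 8.71, 5.25 and 8.89 in ERRKO_PBS, and fell by a factor well outside the replicate spread (-2.48 ± 0.17, adjusted p = 3.9e-07). Esrrg, which encodes ERRγ, was at 8.26, 7.96 and 4.396 in WT_PBS and 3.61, 2.29 and 4.71 in ERRKO_PBS. The ranges overlapped, with WT_PBS replicate 3 below ERRKO_PBS replicate 3, and the fall (-0.87 ± 0.25, adjusted p = 0.019) was lost on leaving out WT_PBS replicate 1, WT_PBS replicate 2 or ERRKO_PBS replicate 2 (limma adjusted p of 0.071, 0.071 and 0.073). The deposited scale gave 0.27. Values for whole genes include exons outside the deletion, whose extent is not labelled, and in whole tissue fewer cells of a type and less RNA per cell cannot be told apart. Esrrb, the remaining family member, was below the filter on low values, at a mean deposited RPKM of 0.0658 over the 12 libraries. Perm1, a muscle and fat coregulator that acts with PGC-1 and ERR, was at 14.7, 11.3 and 8.85 in WT_PBS and 0.3604, 0.164 and 2.44 in ERRKO_PBS and fell (-3.32 ± 0.45, adjusted p = 1.3e-04). The Perm1 level was highest of the ERRKO_PBS libraries in replicate 3, the library with most muscle transcripts. Nrip1, a corepressor (RIP140) of nuclear receptors, rose from 2.59, 2.36 and 2.03 to 9.82, 12.2 and 14.8 (2.17 ± 0.32, adjusted p = 2.5e-04), with no overlap between groups. Ncor1, another corepressor, rose less (0.51 ± 0.13, adjusted p = 0.0079). Ncoa2, a coactivator of nuclear receptors, also rose (0.45 ± 0.13, adjusted p = 0.017), a call lost without WT_PBS replicate 3, ERRKO_PBS replicate 1 or ERRKO_PBS replicate 2 (limma adjusted p of 0.053, 0.057 and 0.068). The list of 11 had 3 higher, 3 lower and 5 not called (6 higher and 2 lower on the deposited scale). The PGC-1 genes Ppargc1a and Ppargc1b were among those not called. Ppargc1a, which encodes PGC-1α, was at 5.47, 4.602 and 4.61 in WT_PBS and 6.45, 3.62 and 10.8 in ERRKO_PBS (0.35 ± 0.31, adjusted p = 0.40), and a rise was called on the deposited scale (0.90, limma adjusted p 0.024). Ppargc1b, for PGC-1β, was at 19.4, 17.4 and 18.5 in WT_PBS and 9.51, 6.65 and 25.7 in ERRKO_PBS, with the highest value of the 6 libraries in ERRKO_PBS replicate 3, and without that library it was lower (-1.16, adjusted p = 0.0064).

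Of the 12249 genes 4189 differed between the groups (34.2%), 1939 higher (15.8%) and 2250 lower (18.4%). Changes of at least 2-fold were more often falls, with 620 genes lower (5.06%) and 404 higher (3.3%). On the deposited scale 8115 genes were called higher (66.3%) and 762 lower (6.22%), with 1609 and 308 past 2-fold. Without ERRKO_PBS replicate 3, the library richest in muscle transcripts, 1561 rose and 1934 fell. Falls made up a larger share of calls among abundant transcripts. Of the 1225 genes with the highest mean level over the 12 libraries (at least 40.7), 39.2% fell and 14.4% rose, and of the 1225 with the lowest (up to 1.04), 7.59% fell and 10.2% rose. A ranking by WT_CL, whose libraries are not part of the difference, was added after seeing the data. By it 48.2% fell and 9.22% rose at the top and 4.49% fell and 16.5% rose at the bottom. WT_CL has the WT genotype, so genes higher in WT under both treatments rank higher there, and it is no independent check. On the deposited scale 22% of the top genes by mean level fell and 57% rose, and 3.76% fell and 42% rose at the bottom. Genes near the pseudocount can show little fall on this scale.

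**Figure D1:**
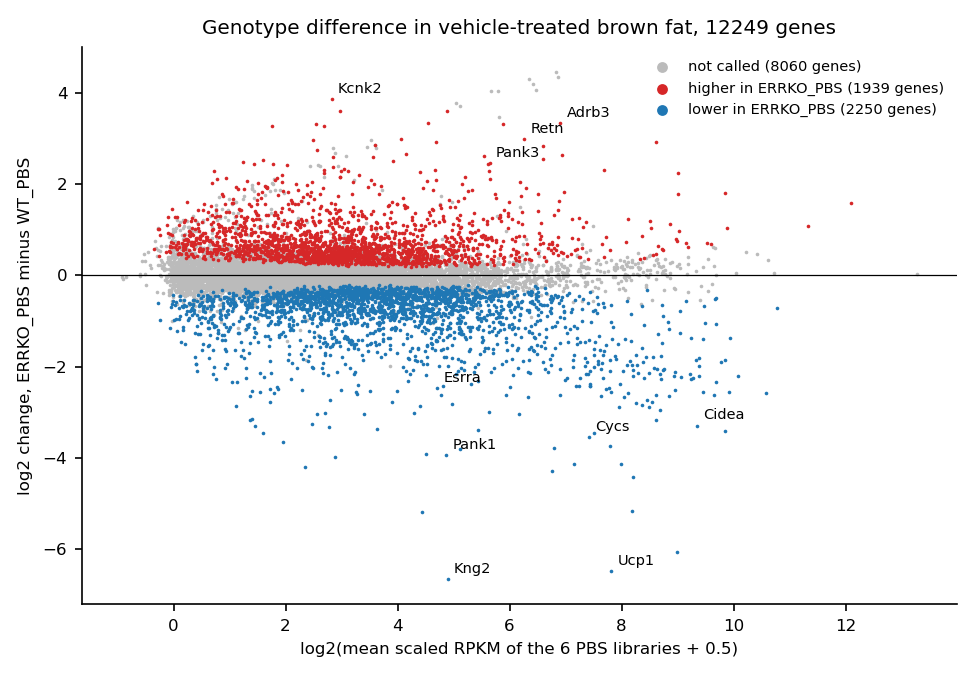
Log2 change (ERRKO_PBS minus WT_PBS) of 12249 genes against the log2 mean level of the 6 PBS libraries, 1 point per gene, with 2250 genes called lower in blue, 1939 called higher in red and the rest in grey. The falls reach -6.64 (Kng2) and crowd towards the right, where levels are high, while the rises peak at 3.86 (Kcnk2).

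The 10 largest falls with complete separation (45% of all genes tested did not overlap between groups) joined heat production, fuel handling and genes of other kinds. Ucp1 was at 484, 315 and 538 in WT_PBS and 3.26, 3.95 and 6.37 in ERRKO_PBS (-6.48 ± 0.31, adjusted p = 2.9e-08) and the groups were far apart. Kng2, which encodes a kininogen, the precursor of bradykinin (GRCm38 chromosome 16, 22985854 to 23029482, minus strand), was at 68.3, 42.9 and 64.3 in WT_PBS and 0.106, 0.0769 and 0.0525 in ERRKO_PBS (-6.64 ± 0.17, adjusted p = 4.4e-10). Reads of Kng2 and its close paralog could be shared, depending on how they were counted. Fabp3, the heart-type fatty acid binding protein, was at 981, 1027 and 979 in WT_PBS and 7.68, 6.66 and 57.6 in ERRKO_PBS (-6.05 ± 0.63, adjusted p = 1.6e-05). Cox7a1, the muscle and brown fat form of a complex IV subunit, was at 476, 461 and 741 in WT_PBS and 8.79, 9.27 and 38.5 in ERRKO_PBS (-5.16 ± 0.45, adjusted p = 3.6e-06). Both were several times higher in ERRKO_PBS replicate 3 than in the other ERRKO_PBS libraries, together with the muscle markers. Without that library the changes were -7.02 for Fabp3 and -5.84 for Cox7a1. Slc27a2, which imports very long chain fatty acids and activates them, fell from 42.5, 47.96 and 34.9 to 0.408, 0.527 and 1.17 (-5.18 ± 0.20, adjusted p = 7.7e-09). The remaining members were Adck3 (Coq8a, an atypical kinase of coenzyme Q synthesis), Tusc3 (a subunit of oligosaccharyltransferase), Cideb (a lipid droplet protein), Impdh1 (guanine nucleotide synthesis) and Chchd10 (a protein of the mitochondrial intermembrane space), at -4.41, -4.29, -4.18, -4.14 and -4.14. Of the exon bases of Cideb 76.3% lie under other annotated genes, so its value is uncertain where reads were counted without strand.

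**Figure D2:**
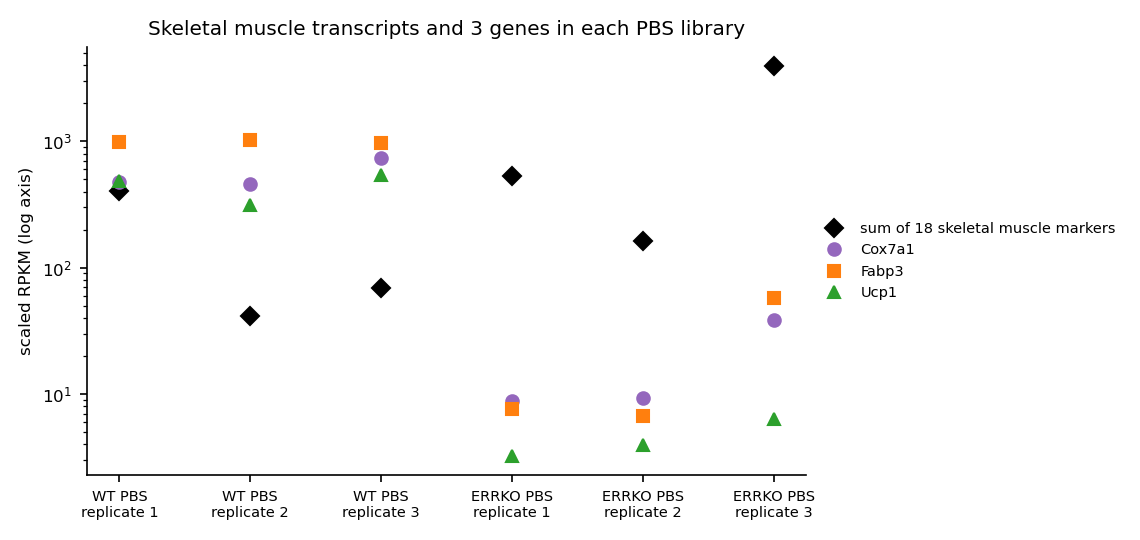
Scaled RPKM (log axis) of Ucp1, Fabp3 and Cox7a1 and of the sum of 18 skeletal muscle markers in each of the 6 PBS libraries, 1 symbol per library. All 3 genes are far lower in every ERRKO_PBS library, and in ERRKO_PBS replicate 3, where the muscle sum is 3917, Fabp3 and Cox7a1 are at 57.6 and 38.5 against 6.66 to 9.27 in the other 2 libraries.

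The 10 largest rises included a channel, a receptor, an enzyme of amino acid synthesis and secreted proteins. Kcnk2, the potassium channel TREK-1, went from 0.423, 0.5495 and 0.276 to 11.9, 13.9 and 12.3 (3.86 ± 0.15, adjusted p = 7.7e-09). Adrb3, the β3-adrenergic receptor itself, went from 19.5, 18.7 and 25.03 to 238, 237 and 177 (3.34 ± 0.26, adjusted p = 1.6e-06), and 24.9% of its exon bases lie under another annotated gene. Psat1, an enzyme of serine synthesis, went from 2.29, 3.26 and 6.28 to 38.5, 53.3 and 33.9 (3.33 ± 0.28, adjusted p = 2.2e-06). In all 3 the lowest ERRKO_PBS library was several times the highest WT_PBS library. Cfb, complement factor B, and Retn, the adipokine resistin, were at 5.93, 7.64 and 20.9 and 8.97, 14.9 and 30.96 in WT_PBS and at 98.1, 134 and 84.998 and 121, 164 and 116 in ERRKO_PBS (3.33 ± 0.34 and 2.99 ± 0.32). WT_PBS replicate 3 was the highest of its group for both. The others were Chst1, a sulfotransferase (3.61 ± 0.19), Ppp1r1b, a phosphatase inhibitor regulated by protein kinase A (3.28 ± 0.40), Gbp11, a guanylate binding protein of the interferon-induced family (3.27 ± 0.41), Fam83a (3.59 ± 0.42) and Rprml (3.32 ± 0.41). Cfb shares 79.5% of its exon bases with other annotated genes.

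Nuclear genes of the respiratory chain fell as a body, and its parts fell unequally. All 36 complex I subunits fell, from -1.03 for Ndufa2 to -2.89 for Ndufv1, a subunit that accepts electrons from NADH (median -2.01). Ndufv1 was at 395, 401 and 518 in WT_PBS and 51.8, 60.04 and 63.3 in ERRKO_PBS. All 14 genes of complexes II and III and cytochrome c fell (median -2.32), with Sdha, the flavin subunit of succinate dehydrogenase, least changed (-1.80 ± 0.10) and Cycs, the mobile carrier cytochrome c, most (-3.53 ± 0.15). Cycs was at 289, 272 and 385 in WT_PBS and 21.9, 30.5 and 27.7 in ERRKO_PBS. Of 16 complex IV genes 15 fell (median -2.22), and of 17 ATP synthase genes 14 fell and 1 rose (median -1.96). The 13 proteins encoded by mitochondrial DNA are not analysed here. Counts of falls in these lists changed little on the deposited scale, with 36, 14, 14 and 12.

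Complex IV and ATP synthase subunits with several isoforms differed by isoform. Cox7a1 fell by 5.16 on the log2 scale and the ubiquitous Cox7a2 by 1.85. Cox8b, the form of contractile and brown fat tissue, fell by 1.86. Cox6a2, the muscle form of subunit VIa, was not called (2.40 ± 1.15, adjusted p = 0.13) and stood at 3.66, 0.333 and 0 in WT_PBS and 3.52, 1.32 and 33.98 in ERRKO_PBS, highest in the library with most muscle transcripts. Among the 3 genes for the c-ring of ATP synthase, which encode the same mature protein, Atp5g2 fell (-0.78 ± 0.11), Atp5g3 was at 197, 204 and 265 in WT_PBS and 252, 322 and 270.4 in ERRKO_PBS and was not called (0.35 ± 0.14, adjusted p = 0.067), and Atp5g1 was at 10.04, 6.32 and 14.6 in WT_PBS and 18.5, 16.4 and 33.8 in ERRKO_PBS. A rise of Atp5g3 was called on the deposited scale (0.94), with quantile normalization (0.89), with a filter at a mean RPKM of 2, with edgeR and without WT_PBS replicate 3. The rise of Atp5g1 (1.11 ± 0.35, adjusted p = 0.026) was lost without WT_PBS replicate 1 or 2 or ERRKO_PBS replicate 3 (adjusted p = 0.054, 0.10 and 0.11). The catalytic subunit gene Atp5b, by contrast, went from 2542, 2468 and 2863 to 388, 456 and 477 (-2.58 ± 0.14). The difference between isoforms within a sample was not tested.

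Assembly factors, which build complex I and are not part of it, had a smaller median fall than the subunits. Of 13 genes 11 fell (median -0.88), led by Ndufaf4 (-1.91 ± 0.13), Ecsit (-1.62 ± 0.085), Foxred1 (-1.42 ± 0.076) and Ndufaf6 (-1.36 ± 0.11). Another gene overlaps 24.02% of the exon bases of Ecsit, so its value is uncertain if strand was not used. Foxred1 was at 37.02, 36.1 and 37.95 in WT_PBS and 12.4, 14.7 and 13.7 in ERRKO_PBS. Acad9, a flavoprotein of the same assembly machinery, was not called (-0.21 ± 0.12, adjusted p = 0.18) and was higher on the deposited scale (0.36). On that scale 8 of the 13 fell and 1 rose.

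As a share of all RPKM, the 96 listed genes of the chain held 13.3% ± 1.23 (SD, n = 3) in WT_PBS and 3.65% ± 0.317 in ERRKO_PBS. This measure does not depend on the scaling of libraries. Complex IV held 4.15% ± 0.5002 and 0.989% ± 0.115, and complex I 3.44% ± 0.338 and 1.04% ± 0.0790. The proteasome, a protein complex outside mitochondria, held 0.612% ± 0.0374 and 0.591% ± 0.0122. Shares are relative, so a fall of the chain raises the share of all other genes, and a level share does not mean unchanged expression.

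**Figure D3:**
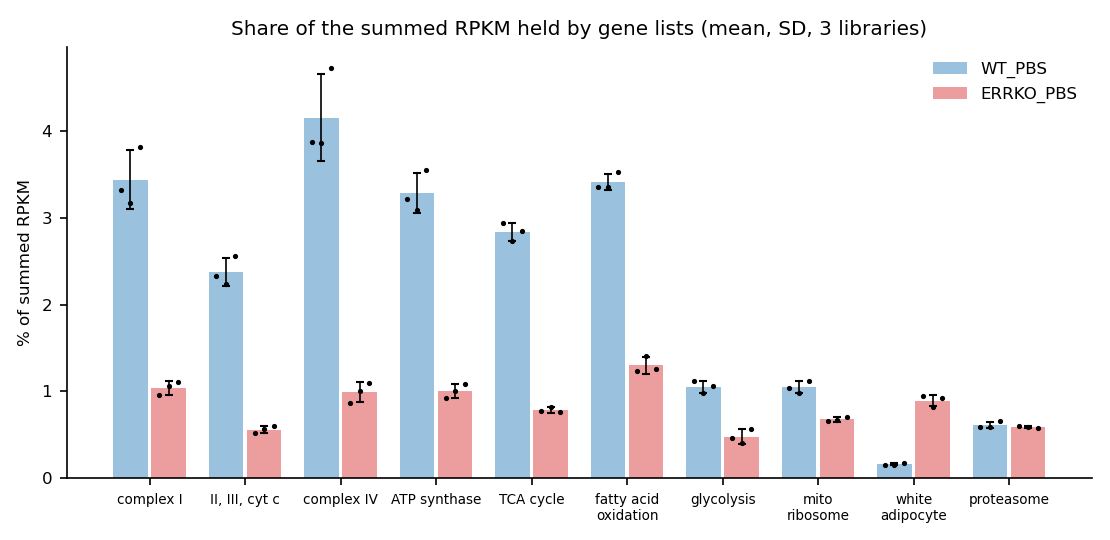
Share of the summed RPKM (percent, linear axis from 0) held by 10 gene lists, with bars for the mean of 3 libraries, lines for the SD and points for single libraries, WT_PBS in blue and ERRKO_PBS in red. Each respiratory chain list is lower in all 3 ERRKO_PBS libraries (complex IV from 4.15% to 0.989%). The share of the white adipocyte list rises from 0.160% to 0.895% and that of the proteasome is level.

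Promoters of these genes were searched for the sequence that ERR proteins are known to bind. The extended half-site TNAAGGTCA (N, any base) was sought on both strands from 250 bases before to 50 after each start in RefSeq promoters of GRCm38.p6, with 9720 of the tested genes matched. It was present in 9 of 612 promoters of genes at least 2-fold lower (1.47%), in 0.726% of promoters of all tested genes and in 1.28% of all 32851 promoters. For the lists of the respiratory chain the share was 3.53% (3 of 85). The core AAGGTCA, which every TNAAGGTCA contains and which was tried after the longer motif was seen to be rare, was in 6.86% of promoters of genes at least 2-fold lower, 3.27% of all tested, 4.72% of all promoters and 10.6% (9 of 85) of those of the respiratory chain lists. These shares are descriptions and do not show binding. The longer motif is shown for Ndufb4, a complex I subunit. It was the only respiratory chain, fuel oxidation or adipocyte gene of the lists that fell at least 2-fold and held the motif before a RefSeq start. Capitals mark the motif as read on the gene's strand, where TGACCTT is the core on the opposite strand, and each window lies upstream of a RefSeq start.
Ndufb4: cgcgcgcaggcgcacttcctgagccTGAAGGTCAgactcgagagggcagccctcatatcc
The core follows in 5 further genes that fell at least 2-fold, from the respiratory chain, cofactor and fuel lists, to let its setting be compared.
Atp5l: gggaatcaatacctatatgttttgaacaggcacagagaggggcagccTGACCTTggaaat
Ndufb2: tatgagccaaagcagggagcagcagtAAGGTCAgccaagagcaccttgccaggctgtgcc
Isca1: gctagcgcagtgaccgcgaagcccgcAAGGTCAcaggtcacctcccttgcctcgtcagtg
Slc27a2: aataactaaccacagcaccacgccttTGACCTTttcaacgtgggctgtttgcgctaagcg
Acadm: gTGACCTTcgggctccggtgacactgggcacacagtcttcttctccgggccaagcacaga
These windows are on GRCm38, the first at chr16:37654391-37654450 (minus strand), then chr9:44920743-44920802 (minus strand), chr6:39592358-39592417 (plus strand), chr13:59769891-59769950 (minus strand), chr2:126552778-126552837 (plus strand) and chr3:153944834-153944893 (minus strand). The motif begins 13 bases before the RefSeq start in Atp5l and 249 before it in Acadm. In the GENCODE annotation Ndufb4 reaches to 37654453 (minus strand) and Slc27a2 begins at 126552407 (plus strand). By that annotation the windows of Ndufb4 and Slc27a2 lie inside the gene and not upstream of it. The log2 changes were -1.73 (Ndufb4), -2.20 (Atp5l, an ATP synthase subunit), -1.58 (Ndufb2, complex I), -1.66 (Isca1, iron-sulfur assembly), -5.18 (Slc27a2) and -1.38 (Acadm, medium-chain acyl-CoA dehydrogenase).

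Cofactors that the chain needs were affected to different degrees. Coenzyme Q carries electrons to complex III, and 8 of 13 genes for its synthesis fell and none rose (median -0.94). Adck3 was at 568, 588 and 525 in WT_PBS and 18.7, 23.4 and 39.1 in ERRKO_PBS (-4.41 ± 0.22, adjusted p = 4.8e-08). Coq7 and Coq6, hydroxylases of the coenzyme Q ring, fell by 2.62 and 2.04, and Coq9, which presents the lipid to COQ7, fell by 1.73 on the log2 scale. On the deposited scale 8 fell and 3 rose. Iron-sulfur cluster assembly fell in 14 of 16 genes (median -0.64), a count that was 9 without WT_PBS replicate 3 and 5 on the deposited scale. The late-acting factors Bola3 (-2.04 ± 0.14), Isca1 (-1.66 ± 0.10) and Isca2 (-1.23 ± 0.12) led, and the scaffold Iscu went from 145, 149 and 148 to 58.5, 74.5 and 70.1 (-1.12 ± 0.094). Heme synthesis changed least. Of 10 genes 3 fell and 7 were not called (median -0.05), and on the deposited scale 7 rose and 1 fell. Slc25a39, a mitochondrial carrier tied to iron and glutathione handling, fell (-0.86 ± 0.11).

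Coenzyme A synthesis showed an exchange of isoforms in its first step, phosphorylation of pantothenate. Pank1 (chromosome 19, 34806940 to 34879455, minus strand) was at 63.7, 54.8 and 44.2 in WT_PBS and 3.01, 2.79 and 3.303 in ERRKO_PBS and fell (-3.94 ± 0.14, adjusted p = 5.9e-09). Pank3, on the plus strand of chromosome 11 (35769484 to 35791285), was at 11.3, 15.1 and 18.2 in WT_PBS and 109, 75.4 and 68.2 in ERRKO_PBS and rose (2.46 ± 0.21, adjusted p = 2.4e-06). Each gene's groups were separate by a wide margin, and the gene with the higher level per length was Pank1 in WT_PBS and Pank3 in ERRKO_PBS. Pank1 fell and Pank3 rose on the deposited scale too (-3.40 and 3.04). Slc25a42, which carries coenzyme A into mitochondria, went from 49.9, 43.8 and 37.5 to 15.1, 9.44 and 12.7 (-1.79 ± 0.18), and Ppcs, the next enzyme, fell (-0.84 ± 0.14). Of 8 genes 5 fell and 2 rose (median -0.44), while 2 fell and 3 rose on the deposited scale.

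In the TCA cycle and pyruvate oxidation list 20 of 21 genes fell (median -1.97). Idh3b, a subunit of NAD-dependent isocitrate dehydrogenase, went from 678, 645 and 783 to 69.4, 80.5 and 85.2 (-3.16 ± 0.11). Both components of oxoglutarate dehydrogenase named by the rule fell, Ogdh (-2.63 ± 0.086) and Dlst (-2.41 ± 0.095). Pcx, pyruvate carboxylase, which feeds oxaloacetate into the cycle and into lipid synthesis, was the exception. It was at 99.8, 85.1 and 114 in WT_PBS and 174, 205 and 153 in ERRKO_PBS and rose (0.83 ± 0.16, adjusted p = 0.0019). Of 7 regulators of pyruvate dehydrogenase 4 fell and 1 rose (2 and 2 on the deposited scale). Pdk4, the kinase that shuts the complex during fat use, was at 381, 274 and 363 in WT_PBS and 33.1, 83.7 and 55.2 in ERRKO_PBS and fell (-2.64 ± 0.43, adjusted p = 5.4e-04), Pdk2 fell (-1.28 ± 0.11), and Pdk1, known as a hypoxia-responsive kinase of the family, was at 14.2, 21.03 and 27.7 in WT_PBS and 40.8, 59.1 and 36.3 in ERRKO_PBS and rose (1.12 ± 0.25, adjusted p = 0.0046). The phosphatase gene Pdp2 fell (-0.69 ± 0.14).

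Mitochondrial fatty acid oxidation fell in 18 of 20 genes (median -1.39). The entry step showed a contrast. Cpt1b, the muscle and brown fat carnitine palmitoyltransferase, was at 222, 191 and 207 in WT_PBS and 13.3, 13.1 and 17.9 in ERRKO_PBS (-3.78 ± 0.14, adjusted p = 5.9e-09), and Cpt1a, the liver-type isoform, was at 5.41, 7.21 and 5.54 in WT_PBS and 6.78, 7.75 and 6.52 in ERRKO_PBS and was not called (0.21 ± 0.16, adjusted p = 0.35). Of the exon bases of Cpt1b 81.4% lie under other annotated genes. Along the spiral Hadhb, the thiolase subunit of the trifunctional protein, fell from 1409.9, 1530.3 and 2015 to 239, 366 and 242 (-2.56 ± 0.19), Acadl by 1.86 and Acadm by 1.38 on the log2 scale. The carnitine carrier Slc25a20 (-1.52 ± 0.093) and Etfdh (-1.74 ± 0.12), which passes electrons from the pathway to coenzyme Q, fell as well.

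Uptake, binding and activation of fatty acids did not fall as a group. Of 15 genes 4 fell, 3 rose and 8 were not called (median -0.03), and on the deposited scale 11 rose and 3 fell. The falls of Fabp3 and Slc27a2 stood beside a rise of Slc27a1, the insulin-responsive transporter FATP1, from 41.6, 42.5 and 36.8 to 89.1, 128 and 105 (1.39 ± 0.16, adjusted p = 4.5e-05). Lpl, lipoprotein lipase, rose (0.71 ± 0.15), from 483, 558 and 629 to 854, 1046 and 834. Cd36, the main fatty acid receptor of fat, was at 529, 532 and 643 in WT_PBS and 536, 694 and 511 in ERRKO_PBS and was not called (0.024 ± 0.14, adjusted p = 0.91). Acsm3, a medium-chain acyl-CoA synthetase of which 39.7% of exon bases lie under another gene, fell (-1.90 ± 0.33). Among 10 acyl-CoA thioesterases, which free fatty acids from coenzyme A, 4 fell and none rose (on the deposited scale 2 fell and 4 rose). Acot11, the brown fat thioesterase Them1, was at 11.1, 6.34 and 11.4 in WT_PBS and 0.796, 0.496 and 0.327 in ERRKO_PBS (-3.26 ± 0.32, adjusted p = 8.8e-06), with 20.9% of its exon bases under another gene, and Acot13 (Them2), a mitochondrial thioesterase, went from 157, 160.2 and 184 to 31.97, 39.99 and 42.8 (-2.12 ± 0.12).

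Peroxisomes, the other site of fatty acid oxidation, moved both ways. Of 27 genes 9 fell, 6 rose and 12 were not called (median -0.15), and on the deposited scale 1 fell and 19 rose. The rises held a transporter and a thiolase of peroxisomal oxidation. Abcd2, an importer of very long chain acyl-CoA, was at 11.6, 13.1 and 28.7 in WT_PBS and 59.4, 69.7 and 55.8 in ERRKO_PBS (1.87 ± 0.32, adjusted p = 7.5e-04), and Acaa1b, the thiolase, which has a close paralog, was at 2.88, 5.02 and 1.75 in WT_PBS and 11.3, 17.5 and 13.7 in ERRKO_PBS (2.06 ± 0.27, adjusted p = 9.4e-05). The falls held factors of peroxisome biogenesis, Pex2 (-0.83 ± 0.10) and Pex6 (-0.76 ± 0.092), and Abcd3, another transporter (-0.74 ± 0.11). Pex16, which acts in membrane assembly, rose (0.73 ± 0.18). Branched-chain amino acid breakdown, a further fuel of brown fat, fell in 10 of 20 genes with none higher (median -0.30), while 4 fell and 11 rose on the deposited scale. Auh, of leucine breakdown, went from 106, 94.9 and 115 to 30.9, 38.6 and 35.2 (-1.58 ± 0.10), and Pccb, of propionate use, and Acad8, of valine breakdown, fell (-0.999 ± 0.10 and -0.92 ± 0.091). Bcat2, the first enzyme, was at 44.3, 45.5 and 48.9 in WT_PBS and 44.6, 56.2 and 44.5 in ERRKO_PBS and was not called.

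Glycolysis fell in part. Of 19 genes for glucose uptake and glycolysis 13 fell and none rose (median -1.05), with 8 lower and 4 higher on the deposited scale. Pgk1, Pgam1 and Gpi1 fell by 2.43, 2.42 and 1.89 on the log2 scale. Ldhb, the lactate dehydrogenase subunit of oxidative tissues, was at 379, 378 and 473 in WT_PBS and 26.1, 29.1 and 36.2 in ERRKO_PBS (-3.74 ± 0.16, adjusted p = 1.1e-08). The glucose transporter of insulin-responsive tissues, Slc2a4, fell (-0.74 ± 0.12), and Hk2, the first kinase, was at 29.5, 23.5 and 27.3 in WT_PBS and 32.4, 21.6 and 26.6 in ERRKO_PBS and was not called (-0.0065 ± 0.15, adjusted p = 0.98).

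**Figure D4:**
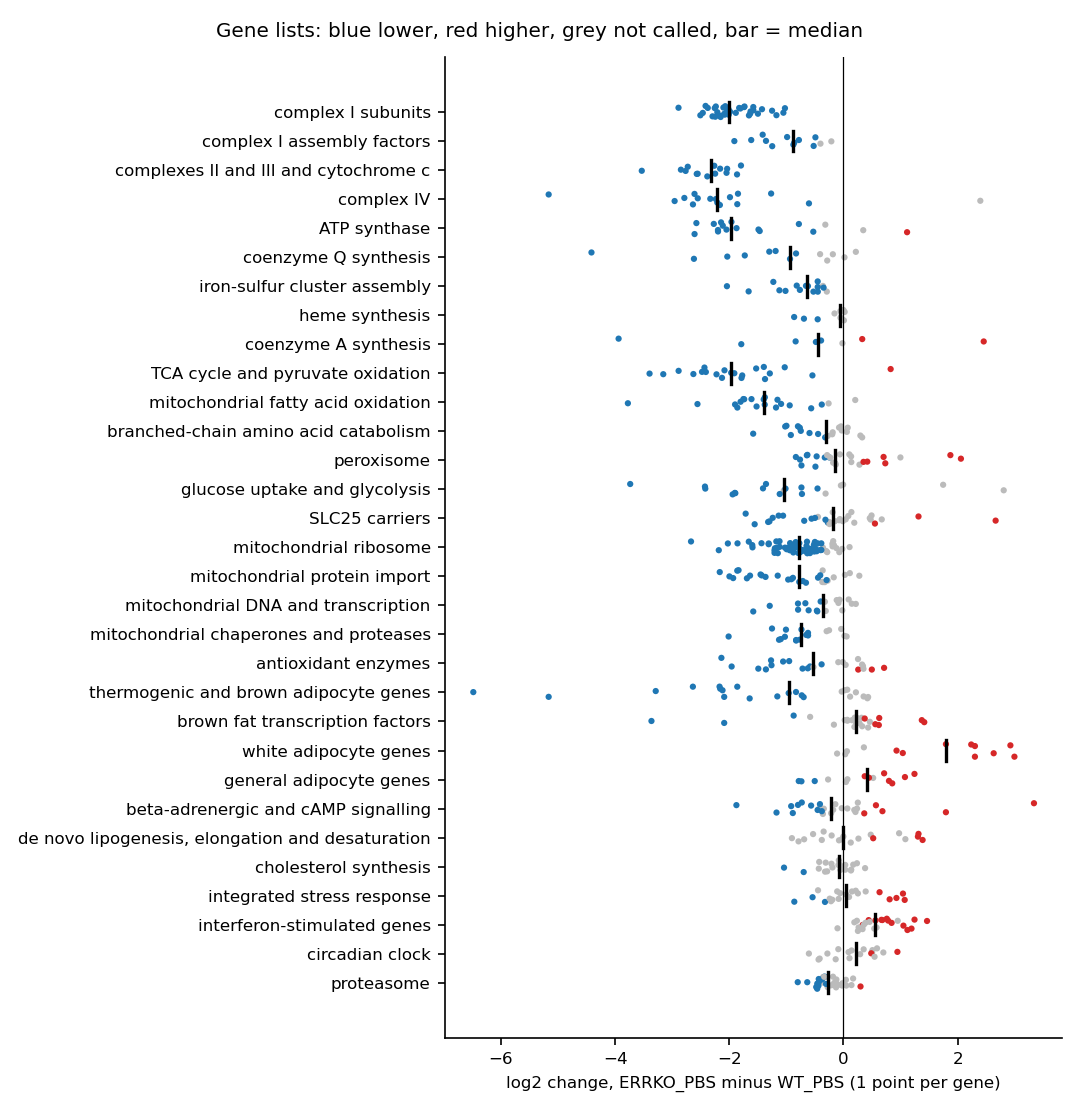
Log2 change (ERRKO_PBS minus WT_PBS) of each tested gene in 31 lists, 1 point per gene, blue for called lower, red for called higher and grey for not called, with a bar at each list's median. Respiratory chain and TCA cycle lists sit near -2, the mitochondrial ribosome and import lists near -0.77, and the white adipocyte list at 1.79.

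Genes that build and maintain mitochondria fell in most cases, by less than the chain they serve. Of 77 mitochondrial ribosome genes 66 fell and none rose (median -0.77), and 32 fell and 9 rose on the deposited scale. The largest fall was Mrps36 (from 131, 115 and 171 to 19.8, 21.7 and 21.9), listed here by its ribosomal name, whose product is also described as a part of oxoglutarate dehydrogenase. Mrpl34 (-2.18 ± 0.13) and Mrpl4 (-1.21 ± 0.076) followed by the size of their p. In protein import 20 of 29 genes fell (median -0.77; 13 lower and 6 higher on the deposited scale), led by the sorting and assembly genes Samm50 (-1.84 ± 0.10) and Mtx2 (-1.93 ± 0.11) and the intermembrane chaperone Timm10 (-2.17 ± 0.16). Genes for mitochondrial DNA upkeep and transcription fell in 9 of 18 cases (median -0.36), while on the deposited scale 2 fell and 7 rose. Lrpprc, which stabilises mitochondrial messenger RNAs, was at 32.4, 26.2 and 32.1 in WT_PBS and 8.53, 10.6 and 10.2 in ERRKO_PBS (-1.58 ± 0.11, adjusted p = 5.3e-07). Tfb2m, a mitochondrial transcription factor, and Tfam, which packages mitochondrial DNA, fell by 1.29 and 0.61. Of the nuclear regulators Gabpa fell (-0.80 ± 0.11) and Nrf1 was not called, at 1.98, 2.27 and 1.86 in WT_PBS and 2.07, 2.07 and 2.47 in ERRKO_PBS.

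Membrane dynamics and quality control followed the same direction. Of 10 fusion and fission genes 7 fell (median -0.83; 6 lower and 2 higher on the deposited scale). Mtfp1, an inner membrane protein that promotes fission, was at 12.7, 12.6 and 13.8 in WT_PBS and 1.47, 1.98 and 2.25 in ERRKO_PBS (-2.50 ± 0.13, adjusted p = 6.3e-08). The fusion GTPases Opa1 and Mfn1 fell by 0.94 and 0.83 and the fission receptor Mief2 by 1.40 on the log2 scale, while Fis1, at 34.5, 33.8 and 48.3 in WT_PBS and 35.5, 42.4 and 39.7 in ERRKO_PBS, was not called. Of 18 chaperone and protease genes 13 fell (median -0.75; 7 lower and 5 higher on the deposited scale). The subunits of the m-AAA protease, Afg3l2 and Spg7, fell by 2.01 and 1.10, and Afg3l2 was at 67.9, 66.2 and 65.1 in WT_PBS and 15.1, 15.6 and 17.6 in ERRKO_PBS. Lonp1, the matrix protease, was at 53.4, 51.2 and 55.5 in WT_PBS and 41.5, 48.5 and 44.3 in ERRKO_PBS and lay just outside the threshold (-0.25 ± 0.091, adjusted p = 0.051). Its fall was called with no filter, with a filter at a mean RPKM of 2, with a replicate block and without ERRKO_PBS replicate 2 (limma adjusted p of 0.048, 0.048, 0.049 and 0.032).

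Metabolite carriers of the SLC25 family split. Of 31 genes 12 fell and 3 rose (median -0.19), the latter count being 1 without ERRKO_PBS replicate 1, and on the deposited scale 6 fell and 15 rose. Slc25a26, the S-adenosylmethionine carrier, fell by 1.71 on the log2 scale. The adenine nucleotide carrier Slc25a5 went from 263, 229 and 340.2 to 97.6, 131 and 102 (-1.32 ± 0.16). Its muscle-rich isoform Slc25a4 fell too (-1.14 ± 0.27), with ERRKO_PBS replicate 3 at 239 against 104 and 109. Slc25a10, the dicarboxylate carrier, which exports malate and is prominent in white fat, was at 2.58, 4.06 and 7.22 in WT_PBS and 34.8, 30.3 and 24.9 in ERRKO_PBS and rose (2.66 ± 0.27, adjusted p = 1.1e-05). Among 23 antioxidant enzymes 12 fell and 3 rose (median -0.53), the rises being 1 without WT_PBS replicate 2 or without ERRKO_PBS replicate 2 and 5 without WT_PBS replicate 3. Among mitochondrial members Sod2, superoxide dismutase of the matrix, was at 127, 118 and 158 in WT_PBS and 27.3, 34.1 and 28.5 in ERRKO_PBS (-2.14 ± 0.12, adjusted p = 7.2e-08), and the peroxiredoxin Prdx5 and thioredoxin Txn2 fell by 1.96 and 1.36. The cytosolic Sod1 was at 408, 393 and 641 in WT_PBS and 491, 676 and 525 in ERRKO_PBS and was not called, although a rise was called on the deposited scale (0.85), with quantile normalization (0.81) and without WT_PBS replicate 3 (0.48), and Gsr, glutathione reductase, rose (0.71 ± 0.12). On the deposited scale 7 of the list fell and 10 rose.

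Adipocyte identity was examined next. In the list of 23 thermogenic genes and brown adipocyte markers 15 members fell, none rose and the median was -0.96, against 11 lower and 6 higher on the deposited scale. Cidea, which enlarges lipid droplets in brown fat, was at 1082, 956 and 1480.0 in WT_PBS and 95.1, 175 and 97.3 in ERRKO_PBS (-3.29 ± 0.23, adjusted p = 6.2e-07). Dio2, which activates thyroid hormone, was at 1.75, 0.955 and 3.34 in WT_PBS and 0.2996, 0.217 and 0.2203 in ERRKO_PBS (-1.64 ± 0.36, adjusted p = 0.0039), low in both groups. Letmd1, a mitochondrial protein needed for brown fat heat production, and Sirt3, a mitochondrial deacetylase, fell by 2.12 and 2.17 on the log2 scale. Plin5, which ties droplets to mitochondria, fell from 46.2, 52.3 and 62.6 to 13.7, 9.63 and 11.6 (-2.16 ± 0.14). Kcnk3, a potassium channel of brown fat, fell (-1.16 ± 0.15) while its relative Kcnk2 was among the largest rises.

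Transcription factors linked to brown fat, general ones among them, were mostly not called. Of 25 genes 3 fell, 6 rose and 16 were not called (median 0.22, and 20 rose on the deposited scale). Over all genes 18.4% fell and 15.8% rose, and the count of called members lay near the 34.2% of all genes. Prdm16, Ebf2 and Zic1, which specify the brown lineage, were at 4.04, 4.12 and 3.46 in WT_PBS and 5.07, 2.04 and 5.63 in ERRKO_PBS for Prdm16 (0.022 ± 0.25, adjusted p = 0.96), 11.1, 11.5 and 8.92 in WT_PBS and 11.3, 10.3 and 11.4 in ERRKO_PBS for Ebf2 (0.066 ± 0.15, adjusted p = 0.76) and 2.102, 1.88 and 2.12 in WT_PBS and 2.41, 2.69 and 2.24 in ERRKO_PBS for Zic1 (0.22 ± 0.12, adjusted p = 0.18). Without ERRKO_PBS replicate 2, which holds its lowest value, Prdm16 was called higher (0.42, adjusted p = 0.02). The master adipocyte regulator Pparg was not called (0.069 ± 0.24, adjusted p = 0.85). Its relative Ppara, which drives fatty acid oxidation, was at 55.7, 60.9 and 44.2 in WT_PBS and 17.7, 7.005 and 14.2 in ERRKO_PBS and fell (-2.09 ± 0.27, adjusted p = 7.7e-05), and their shared partner Rxra was at 10.9, 10.6 and 9.95 in WT_PBS and 31.1, 27.8 and 25.2 in ERRKO_PBS and rose (1.37 ± 0.093, adjusted p = 4.3e-07). Nr4a1, an orphan receptor induced by cyclic AMP, fell from 25.1, 22.8 and 18.5 to 2.13, 0.998 and 2.14 (-3.36 ± 0.31, adjusted p = 5.8e-06). Tbx15, a factor linked to brown and white fat development, rose (1.41 ± 0.16).

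Most tested genes typical of white fat rose. The list held 17 genes, and 4 of them were below the filter on low values and were not tested. Of 13 tested 9 rose and none fell (median 1.79), with Sncg (γ-synuclein) at 52.9, 91.1 and 148 in WT_PBS and 693, 604 and 755 in ERRKO_PBS (2.92 ± 0.29, adjusted p = 1.1e-05) and Nnat (neuronatin) at 209, 139 and 195 in WT_PBS and 809, 794 and 931 in ERRKO_PBS (2.24 ± 0.17, adjusted p = 8.8e-07). Inhbb, an activin subunit, rose from 1.37, 1.77 and 1.91 to 11.3, 10.01 and 9.35 (2.302 ± 0.14), and Dpt (dermatopontin) and Ccdc80 by 2.302 ± 0.22 and 2.63 ± 0.33. Lep, leptin, was at 61.5, 62.003 and 63.4 in WT_PBS and 151, 115 and 97.2 in ERRKO_PBS (0.93 ± 0.18, adjusted p = 0.0019). WT_PBS replicate 3 was the highest of its group for Sncg, Dpt, Ccdc80 and Retn. Of 14 general adipocyte genes 7 rose and 3 fell (median 0.41), the falls being 1 without ERRKO_PBS replicate 3 and none on the deposited scale. Plin1, the droplet gatekeeper of lipolysis, rose from 375, 327 and 398 to 623, 602 and 686 (0.80 ± 0.13). Fabp4 was at 8300.4, 8557 and 12625 in WT_PBS and 8409.9, 11882 and 9799 in ERRKO_PBS and was not called (0.042 ± 0.29, adjusted p = 0.93). Adipoq, whose promoter drives the Cre, was at 812, 813 and 1326 in WT_PBS and 1133, 1710.3 and 1331 in ERRKO_PBS and was not called (0.52 ± 0.21, adjusted p = 0.075), but rose on the deposited scale (1.11, limma adjusted p 1.7e-04). Leaving out WT_PBS replicate 3 or ERRKO_PBS replicate 1 also gave a rise (0.0043 and 0.05).

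The β-adrenergic pathway was altered at several steps, with the receptor up and some downstream genes down. Of 27 genes 10 fell, 5 rose and 12 were not called (median -0.22), and on the deposited scale 2 fell and 14 rose. Beside Adrb3, Adrb1 rose (0.57 ± 0.14). Gnas, which encodes the stimulatory G protein, was at 166, 146 and 154 in WT_PBS and 77.9, 86.1 and 81.7 in ERRKO_PBS and fell (-0.92 ± 0.14, adjusted p = 3.8e-04), with 21.97% of its exon bases under other genes. Adcy5, an adenylyl cyclase, was at 2.72, 5.13 and 7.799 in WT_PBS and 12.7, 30.2 and 14.9 in ERRKO_PBS and rose (1.79 ± 0.36, adjusted p = 0.0021), and the phosphodiesterase Pde4a fell from 10.1, 7.901 and 5.47 to 1.62, 1.42 and 2.15 (-1.88 ± 0.20) while Pde3b, the insulin-regulated phosphodiesterase of fat, rose (0.68 ± 0.087).

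Lipid droplet proteins exchanged members. Among 8 perilipins and CIDE proteins 3 fell and 3 rose (3 and 4 on the deposited scale). Cideb, Cidea and Plin5 fell, and Plin1, Plin4 and Cidec rose. Cidec, the CIDE protein of large droplets, was at 197, 224 and 284 in WT_PBS and 430.2, 433 and 398 in ERRKO_PBS (0.85 ± 0.14, adjusted p = 5.0e-04), and Plin4, of white fat droplets, was at 176, 177 and 138 in WT_PBS and 461, 318 and 392 in ERRKO_PBS (1.24 ± 0.15, adjusted p = 6.3e-05). Per length, Cidea stood above Cidec in all 3 WT_PBS libraries and below it in all 3 ERRKO_PBS libraries. Of 10 lipolysis genes 3 rose and 3 fell (6 and 1 on the deposited scale), with Lipe, hormone-sensitive lipase, higher (0.45 ± 0.10) and Mgll, monoglyceride lipase, higher (0.57 ± 0.14).

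**Figure D5:**
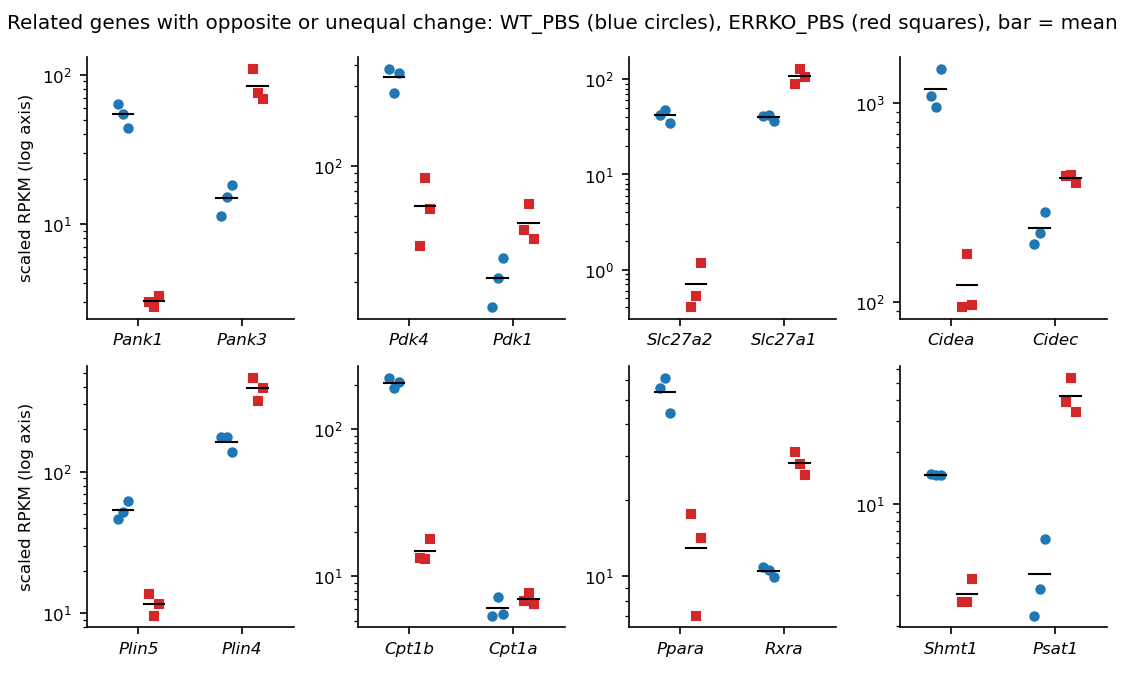
Scaled RPKM (log axis, own scale in each panel) of 8 pairs of related genes in the 3 WT_PBS libraries (blue circles) and 3 ERRKO_PBS libraries (red squares), with bars at the group means. The first gene of each pair is lower in ERRKO_PBS, while the other is higher, except for Cpt1a, which was not called (0.21 ± 0.16, adjusted p = 0.35). The pairs were picked for opposite or unequal change, so they do not show how common it is, and not all are isoforms.

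Lipid synthesis pathways differed among themselves. Of 19 genes of fatty acid synthesis, elongation and desaturation 4 rose and none fell (median -0.0024, and 9 rose on the deposited scale). Srebf1, which regulates the pathway, was at 34.7, 35.3 and 36.7 in WT_PBS and 106, 85.98 and 76.2 in ERRKO_PBS (1.304 ± 0.22, adjusted p = 7.0e-04), and Fads3 rose (1.39 ± 0.19), while Fasn was at 128, 61.5 and 155 in WT_PBS and 363, 239 and 135 in ERRKO_PBS and Acly at 109.9, 73.99 and 135 in WT_PBS and 74.9, 67.7 and 32.7 in ERRKO_PBS, neither called. Fasn and Acly were lowest within ERRKO_PBS in replicate 3. In glycerol and triglyceride synthesis 5 of 16 genes fell and 2 rose (10 rose and 4 fell on the deposited scale), with rises of 1 without WT_PBS replicate 1 or 2 or without ERRKO_PBS replicate 1 or 3. Both glycerol 3-phosphate dehydrogenases, the cytosolic Gpd1 and the mitochondrial Gpd2, fell (-1.40 ± 0.16 and -1.37 ± 0.16), and Gpd1 went from 1060.0, 895 and 1081 to 380.2, 371 and 396. Gk, glycerol kinase, fell (-1.63 ± 0.23), and Mogat1, which acylates monoglycerides, rose from 0.945, 0.485 and 4.599 to 10.1, 14.9 and 9.19 (2.59 ± 0.46, adjusted p = 9.7e-04). Cholesterol synthesis was little changed, with 2 of 21 genes lower (Hmgcs1, -1.04 ± 0.17, and Dhcr7, -0.70 ± 0.12) and 8 higher on the deposited scale.

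Serine synthesis and stress genes were mixed, and their counts of called members lay near the 34.2% of all genes. Phgdh, the enzyme that begins serine synthesis, was at 32.3, 36.5 and 54.2 in WT_PBS and 134, 149 and 135 in ERRKO_PBS and rose (1.78 ± 0.22, adjusted p = 5.5e-05) like Psat1. Shmt1, the cytosolic serine hydroxymethyltransferase, was at 14.9, 14.8 and 14.7 in WT_PBS and 2.73, 2.75 and 3.72 in ERRKO_PBS (-2.11 ± 0.14, adjusted p = 3.9e-07), and its mitochondrial relative Shmt2 fell (-0.73 ± 0.12). In the list as a whole 3 of 13 rose and 2 fell (9 and 1 on the deposited scale). Of 21 genes of the integrated stress response, the program of the factor ATF4, 5 rose and 3 fell (median 0.05, and 17 rose on the deposited scale). Eif4ebp1, a brake on translation, Chac1, which degrades glutathione, and Cth, of cysteine synthesis, rose (1.07 ± 0.13, 1.04 ± 0.20 and 0.93 ± 0.21). Atf4 was at 27.7, 31.5 and 30.8 in WT_PBS and 27.8, 32.4 and 32.9 in ERRKO_PBS and Asns, a common readout of the program, at 19.7, 22.1 and 31.5 in WT_PBS and 23.2, 24.8 and 19.8 in ERRKO_PBS, neither called.

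Interferon-stimulated genes leaned upward. Of 25 genes 13 rose and none fell (median 0.56), a count that was 8 without WT_PBS replicate 2 and 25 on the deposited scale. Ifit3 was at 7.74, 10.4 and 20.5 in WT_PBS and 45.1, 23.1 and 36.4 in ERRKO_PBS (1.46 ± 0.296, adjusted p = 0.0023), Irf7 at 8.37, 9.04 and 20.01 in WT_PBS and 30.2, 20.6 and 27.02 in ERRKO_PBS (1.12 ± 0.25, adjusted p = 0.0048) and Isg20 at 2.13, 2.04 and 2.89 in WT_PBS and 5.36, 6.89 and 5.72 in ERRKO_PBS (1.19 ± 0.15, adjusted p = 7.5e-05). WT_PBS replicate 3 was above the other WT_PBS libraries for Ifit3 and Irf7. Of 6 tested T and B lymphocyte markers 2 rose, Cd3e (0.92 ± 0.20, adjusted p = 0.0037) and Cd3g (1.10 ± 0.39, adjusted p = 0.046), none fell and 4 were not called (median 0.017). The call of Cd3g was lost without WT_PBS replicate 2, WT_PBS replicate 3, ERRKO_PBS replicate 1 or ERRKO_PBS replicate 2, where its adjusted p by limma was 0.12 to 0.15. Their summed level overlapped, at 9.54 to 21.9 in WT_PBS against 10.7 to 17.1 in ERRKO_PBS, and their part in the interferon genes was not tested. Circadian genes were mostly not called, with 2 of 18 higher and none lower (10 higher on the deposited scale; 1 without WT_PBS replicate 3 or without ERRKO_PBS replicate 1 or 3). Rora, an activator of the clock, rose (0.94 ± 0.13), and Arntl (Bmal1) ranged from 0.553 to 3.39 within WT_PBS alone. Of 31 proteasome genes 11 were lower and 1 higher (median -0.28), against 18.4% lower and 15.8% higher over all genes. The count called in either direction lay near the 34.2% of all genes. This lean downward was unstable, as the falls numbered 5, 7 and 6 without ERRKO_PBS replicate 1, ERRKO_PBS replicate 3 and WT_PBS replicate 3. On the deposited scale 19 rose and none fell.

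Other routes of heat production and secreted factors were affected in single genes. Phospho1, a phosphatase of phosphocholine, was at 142, 122 and 116 in WT_PBS and 12.96, 14.8 and 17.8 in ERRKO_PBS (-3.03 ± 0.13, adjusted p = 1.1e-08), with 89.6% of its exon bases under other genes. Of the creatine cycle, Ckb, the creatine kinase of brown fat, went from 48.6, 51.6 and 41.1 to 13.8, 10.8 and 10.3 (-1.98 ± 0.16, adjusted p = 1.6e-06) and the creatine transporter Slc6a8 from 14.6, 19.5 and 12.1 to 3.94, 3.59 and 4.97 (-1.75 ± 0.19), while Gamt, which makes creatine, rose (1.53 ± 0.22). In this list of 11, with 4 lower and 1 higher, the rises were 3 without WT_PBS replicate 1 and 4 without ERRKO_PBS replicate 2, 6 rose and 3 fell on the deposited scale, and the list includes genes of muscle. Among 22 secreted factors 5 rose and 3 fell (11 and 2 on the deposited scale), near the 34.2% of all genes called. Rbp4, retinol binding protein, was at 7.705, 10.1 and 24.01 in WT_PBS and 83.7, 80.9 and 69.7 in ERRKO_PBS (2.61 ± 0.31, adjusted p = 4.7e-05), Fgf1 at 8.34, 4.79 and 7.69 in WT_PBS and 1.37, 1.08 and 1.38 in ERRKO_PBS (-2.04 ± 0.23, adjusted p = 2.5e-05) and Vegfb fell (-0.71 ± 0.10). Igf1 rose (1.53 ± 0.35).

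Markers of skeletal muscle, fibroblasts and macrophages gave few calls, with wide spread in some lists. Over all genes 18.4% fell and 15.8% rose. The endothelial list and, on fewer members, the mural and Schwann lists had larger shares of falls than that. None of 18 skeletal muscle markers was called, while their median change was 3.59 and 14 were called higher on the deposited scale. None of 14 fibroblast markers was called (summed level 349.8 to 585 in WT_PBS, 515 to 644 in ERRKO_PBS; 14 higher on the deposited scale). Of 15 macrophage markers 1 was called lower (sum 278 to 524 and 309 to 355), while 8 were higher and none lower on the deposited scale. No defining macrophage marker was at 0. Of 10 endothelial markers 4 fell and none rose (median -0.44; none called on the deposited scale), with Emcn, endomucin, at 16.1, 17.96 and 16.7 in WT_PBS and 11.98, 12.7 and 9.37 in ERRKO_PBS (-0.57 ± 0.12, adjusted p = 0.0026) and sums of 229 to 346 (WT_PBS) and 209 to 224 (ERRKO_PBS). Of 7 mural and smooth muscle markers 2 fell, Cnn1 (-1.298 ± 0.22) and Rgs5 (lost without WT_PBS replicate 1 or 2, limma adjusted p of 0.051 and 0.053), and 5 were not called (median -0.22), with overlapping sums (145 to 219 and 124 to 175). On the deposited scale 2 of the mural and smooth muscle markers were higher and 1 lower. Of 7 Schwann and nerve markers 2 fell, S100b and Ngfr, and 5 were not called (median 0.17), against 3 higher and 1 lower on that scale. The fall of Ngfr was lost without WT_PBS replicate 1 or 3 or ERRKO_PBS replicate 1 or 3 (limma adjusted p of 0.076 to 0.11). S100b, a Schwann cell marker that adipocytes also express, was at 25.2, 37.3 and 64.9 in WT_PBS and 1.91, 2.33 and 2.21 in ERRKO_PBS and fell (-3.92 ± 0.31, adjusted p = 1.8e-06), whereas the Schwann cell factor Sox10 was at 0.519, 0.593 and 0.708 in WT_PBS and 0.757, 1.16 and 0.619 in ERRKO_PBS and was not called (0.27 ± 0.19, adjusted p = 0.29).

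The same genotype contrast was available in mice given CL316,243, and the difference between the contrasts was tested by the interaction of the same fit. It was called for 478 genes (3.9%), a count that was 243 without WT_PBS replicate 2, 245 without ERRKO_PBS replicate 1 and 822 without WT_PBS replicate 3. Of these 301 were also called in the vehicle-treated comparison, 197 lower and 104 higher. Among the 197, 84 had a smaller fall under PBS than under CL316,243 and 113 a larger one. The interaction contains the PBS libraries of that comparison, and a call under PBS favours large changes there. The overlap and the split are therefore partly built in and are descriptions only. No subunit of complex I, of complexes II and III or of complex IV was among the 478, with list medians of -2.01, -2.32 and -2.22 under PBS and -2.26, -2.73 and -2.34 under CL316,243. Tusc3 differed most of the 10 largest falls, which were picked by their change under PBS. It was at 198, 186 and 232 in WT_PBS and at 10.3, 10.99 and 8.77 in ERRKO_PBS, but at a mean of 14.5 in WT_CL and 11.4 in ERRKO_CL (interaction -3.95 ± 0.16, adjusted p = 1.3e-07). Slc27a2 was lost more completely under PBS, with means of 50.3 in WT_CL and 13.6 in ERRKO_CL (interaction -3.34 ± 0.29, adjusted p = 1.4e-04). Letmd1 fell less under PBS than under CL316,243 (interaction 1.09 ± 0.11, adjusted p = 4.9e-04). Nnat rose less under PBS, and its means were 8.43 in WT_CL and 572 in ERRKO_CL (interaction -3.78 ± 0.23, adjusted p = 8.2e-06). For Ucp1 the interaction was not called (-0.45 ± 0.43, adjusted p = 0.65), with means of 2349.7 in WT_CL and 36.6 in ERRKO_CL.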

How the data were processed

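Total RNA was the input of the RNA-seq libraries, per the labels' protocols. Tools in the submitters' processing notes are STAR 2.3.0, bcl2fastq 2.16.0.10, edgeR and cutadapt, and builds mm10 and mm9, with no role stated. How reads were counted, with which annotation and whether by strand is not given in the sources used here. The authors deposited RPKM for 24452 genes, 6296 of them at 0 in every library, and a second table of 12380 genes whose deposited values are a linear signal, although it is called log CPM. Which total the RPKM refer to is not given in the sources used here. In each library 100% of the signal values were whole multiples of a step (tolerance 0.01), and division by the step gave the recovered reads. The table also holds 9 stray cells, not used.

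Libraries were scaled by the median of ratios. With R 4.3.3, limma 3.58.1 with a trended prior was fitted to log2 of scaled RPKM plus 0.5 for genes with a mean deposited RPKM of at least 0.5, over 12 libraries as 4 group means with 8 residual degrees of freedom and no replicate block. Tests were two-sided, with Benjamini-Hochberg adjustment at 0.05. Changes on this scale understate those of low genes. edgeR 4.0.16 was run on the recovered reads as an alternative. Other scalings, pseudocounts, filters, priors, a replicate block, a muscle covariate, the PBS libraries alone and leaving out each PBS library were also tried. The fits were also run on simulated reads with few changed genes, 1 fixed dispersion and no shift of the typical gene between genotypes. That setting differs from these data, so it tests neither the scaling nor the counts of calls here. Gene lists are described by counts and medians, with no set test. The comparison and lists were chosen with earlier results of these data known.

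Named genes were Esrra, Esrrg, Esrrb, Ucp1, Ppargc1a, Cidea, Dio2 and Adrb3, the 10 largest rises and 10 largest falls with complete separation and a mean of at least 1, and, from each list, up to 4 called members with the smallest p and members against the list's direction, some of which are not described or not reported here. These were chosen after their values were seen: Cox8b, Elovl3, Ppargc1b, Ndufa2, Sdha, Cox7a2, Cox6a2, Atp5g2, Atp5g3, Acad9, Ndufb4, Atp5l, Ndufb2, Acadm, Cpt1a, Hadhb, Cd36, Bcat2, Hk2, Nrf1, Fis1, Lonp1, Slc25a5, Slc25a4, Sod1, Prdm16, Ebf2, Zic1, Pparg, Ccdc80, Lep, Fabp4, Adipoq, Fasn, Acly, Atf4, Asns, Irf7, Arntl, Igf1, Sox10 and Ncoa2. The search for AAGGTCA was also added after seeing the data. Exon overlaps and coordinates are from GENCODE M21 (GRCm38) and promoters from RefSeq (GRCm38.p6).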

Additional observations from a re-analysis of the deposited data

Results flagged for a closer look

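For 34 genes named above the effect of the deletion differed between PBS and CL316,243 in the interaction of the limma fit (Benjamini-Hochberg adjusted p below 0.05, 3 libraries per group). Values here are the log2 change under PBS minus that under CL316,243. Many of these genes were named by their change under PBS, which enters this difference. That choice favours changes that are larger under PBS, above all among the 10 largest rises and falls.

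Among the largest changes under PBS, the falls that were larger under PBS were Kng2 (-1.51), Slc27a2 (-3.34), Adck3 (-1.49), Tusc3 (-3.95), Cideb (-1.25) and Impdh1 (-2.09), and Kcnk2 rose more under PBS (1.13). Further falls larger under PBS were those of Pank1 (-1.56), Cpt1b (-0.87), Auh (-0.77) and Phospho1 (-1.54). Nr4a1 (-2.78), Slc6a8 (-1.30) and Fgf1 (-1.54) fell under PBS and were not called under CL316,243. Nnat (-3.78), Inhbb (-1.001) and Phgdh (-2.09) rose less under PBS.

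Falls that were smaller under PBS were those of Ndufaf4 (1.08), Ecsit (0.51) and Foxred1 (0.68) of complex I assembly, Dlst (0.60), Acad8 (0.54), Tfb2m (0.69), Tfam (0.61), Afg3l2 (0.54), Letmd1 (1.09), Gnas (1.29), Gpd1 (1.01) and Gk (1.31). Acaa1b (1.99) and Mogat1 (2.58) rose under PBS and were not called under CL316,243. Atp5g3 (0.80) and Hk2 (0.93) were not called under PBS and fell under CL316,243. Elovl3 (3.31) fell under CL316,243, but it lay below the pseudocount of 0.5 in all 6 PBS libraries and passed the filter only through the CL316,243 libraries. A fall under PBS could not have been seen, so its difference does not show that the genotype effect depends on treatment.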

How the results depend on the processing

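Without rescaling the deposited RPKM, 8877 genes were called, 8115 higher and 762 lower, with 1609 and 308 past 2-fold. Quantile normalization called 4574, edgeR's quasi-likelihood test on recovered reads 4305, the 6 PBS libraries alone 3257 and a fit with mean muscle marker level as covariate 3246. edgeR called 622 genes at least 2-fold higher. With 1 PBS library left out 3349 to 4131 genes were called, 1486 to 1933 higher and 1863 to 2198 lower, with 382 to 441 and 586 to 647 past 2-fold, and the interaction was called for 243 to 822 against 478 with all libraries (243 without WT_PBS replicate 2, 245 without ERRKO_PBS replicate 1 and 822 without WT_PBS replicate 3). Where this leaves 2 libraries in a group, the spread is shared with the other groups. Same-numbered libraries did not deviate together (correlations -0.010, 0.054 and -0.22 for numbers 1, 2 and 3). These correlations run over genes that are not independent and cannot show whether the numbers pair the samples. With a replicate block 4070 genes were called (1866 higher, 2204 lower) and the interaction for 371.

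On the deposited scale 5 named genes changed sign, Acad9 (0.36), Hk2 (0.58), Lonp1 (0.33) and Asns (0.50), which were not called with rescaling, and Emcn (0.0065), which was called lower. The falls of Esrrg, Atp5g2, Ppcs, Pdp2, Pex6, Abcd3, Slc2a4, Tfam, Gabpa, Slc25a4, Gnas, Dhcr7, Shmt2, Vegfb, Rgs5 and Ngfr were lost there, and those of Slc25a4 and Rgs5 also under quantile normalization. With the muscle covariate the rises of Ncor1, Ncoa2, Atp5g1 and Cd3g and the fall of Ngfr were lost. Rises of Atp5g3, Cd36, Sod1, Adipoq and Fasn were called under quantile normalization and on the deposited scale. The calls of Esrrg, Rgs5 and Ngfr were also lost in the 6 PBS libraries alone and that of Atp5g1 with no filter. The call of Cd3g was lost in these settings too, and with quantile normalization, a pseudocount of 0.1, a robust fit and edgeR. A pseudocount of 0.1 and a robust fit changed no other call of a named gene, and a pseudocount of 1 and a fit without trend changed none. With only the 250 bases before the start, TNAAGGTCA was in 1.14% of promoters of genes at least 2-fold lower and 0.67% of all tested. Levels of low genes rest on few reads, which limits the precision of their changes.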

Other observations

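Some gene groups had a different median under PBS than under CL316,243, with few or no members passing the interaction. Fatty acid synthesis, elongation and desaturation had a median of -0.0024 under PBS and -0.86 under CL316,243 (2 of 19 members called for the difference). Antioxidant enzymes were at -0.53 and 0.014 (1 of 23), and interferon-stimulated genes at 0.56 and -0.0052 (none of 25). Glucose uptake and glycolysis was at -1.05 and -1.69 (5 of 19), and branched-chain amino acid breakdown at -0.30 and -0.64 (4 of 20). Over all genes 3.9% were called for the difference.

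Other promoter motifs were also counted. AGGTCA repeated after 1 base of any kind, the direct repeat known for PPAR and RXR, was in 0.163% of promoters of genes at least 2-fold lower and 0.0323% of all tested, 1 and 4 promoters. GCGCA followed directly by TGCGC, the palindrome known for NRF1, was in 1.80% and 2.06%, and in 8.24% (7 of 85) of those of the respiratory chain lists.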
